A study of Mus musculus with 24 samples.

Results

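The nuclear genes for the subunits of respiratory complex I were followed in 3 tissues of mice at 2 ages: left ventricle, skeletal muscle and kidney. Rows of the count table were taken by name, as Ndufa, Ndufb, Ndufc, Ndufs or Ndufv with a number, together with Ndufab1, and assembly factors were not taken. Of 41 rows with such a name 3 were annotated as processed pseudogenes (Ndufs6b, Ndufa11b and Ndufb4c) and left out, which gave 38 genes of 55401 in the table. All 38 passed the low-count filter of each fit. Ndufa4, now regarded as a subunit of complex IV, and its paralog Ndufa4l2 fell under the naming rule and are kept apart below, and a row named Ndufb1-ps did not match it. The animals were C57BL6/J mice, a wild-type inbred strain, with 4 aged 86 weeks and 4 aged 16.5 weeks and with 2 males and 2 females at each age. Each of the 8 mice gave a left ventricle, a skeletal muscle and a kidney library, 24 in all, so that each tissue had 8 libraries and each age within a tissue 4. Replicate numbers are the mouse numbers, 14 and 17 (males) and 11 and 12 (females) at 86 weeks, and 19 and 20 (males) and 14 and 15 (females) at 16.5 weeks. Which muscle and which region of the kidney was sampled is not stated in the labels. Total RNA was sequenced after depletion of ribosomal RNA, and the values are gene counts.

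Complex I, or NADH:ubiquinone oxidoreductase, takes electrons from NADH into the mitochondrial respiratory chain. Its hydrophilic arm reaches into the matrix and passes them from a flavin along iron-sulfur clusters to ubiquinone, and its membrane arm, built around subunits encoded by mitochondrial DNA, pumps protons. Core subunits carry out the chemistry and have bacterial counterparts, whereas accessory subunits surround them and serve assembly and stability. Cardiomyocytes and kidney tubule cells are known for dense mitochondria, and fast glycolytic muscle fibres for fewer.

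Total counts ran from 52602585 to 103797551 per library. Levels are CPM, counts scaled to a common library total, after TMM, a scaling of each library by the trimmed mean of its log ratios to a common library. Expressed coding genes are the 8316 protein-coding genes with a mean of at least 10 CPM. Cell type markers were summed per library: 6 cardiomyocyte genes summed to a median of 56893 CPM in left ventricle, 165 CPM in skeletal muscle and 22.4 CPM in kidney, 7 fast-fibre genes to 12.1, 151707 and 18.8 CPM, and 6 proximal tubule genes to 20.3, 16 and 12468 CPM in the same tissues. The list of 6 distal nephron genes summed to 10.41, 4033 and 3970 CPM, and in muscle its sum was nearly all Pvalb, a calcium-binding protein that fast fibres also make (median 0.721, 4006 and 5.62 CPM). Umod, a defining gene of that list, had medians of 1.28, 1.74 and 1605 CPM. Endothelial genes summed to medians of 564, 115 and 213 CPM, fibroblast genes to 511, 423 and 165 CPM, macrophage genes to 107, 59.0 and 66.8 CPM and adipocyte genes to 224, 97.0 and 26.9 CPM, and their part in the subunit levels was not tested. Genes of slow fibres, a mitochondria-rich fibre type, summed to at most 47.5 CPM in skeletal muscle. In bulk tissue, fewer cells of a type and less RNA per cell cannot be told apart. A kidney library (86-week replicate 11) and a muscle library (86-week replicate 17) stood apart with TMM factors of 1.53 and 1.07, against 1.11 to 1.31 and 0.759 to 0.838 in the other libraries of their tissue. Of the 38 genes, 20 overlapped another gene's span and 6 of these on the same strand, and since the strand setting of the counting is not given in the sources used here, reads of overlapping genes may be mixed.

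Summed over the 38 genes, left ventricle stood far above both other tissues. The sum was 5226, 5828 and 7102 CPM in left ventricle, 2239, 3059 and 3588 CPM in skeletal muscle and 1826, 2569 and 2757 CPM in kidney, where 3 values for a tissue are here and below the lowest, the median and the highest of its 8 libraries. Every left ventricle library was above every library of the other tissues, while skeletal muscle and kidney overlapped. As a share of all counts of a library the genes took 0.590 ± 0.035% in left ventricle, 0.249 ± 0.015% in muscle and 0.303 ± 0.014% in kidney (SD, n = 8 each). Per 1000 counts of expressed coding genes they took 11.5 ± 0.54, 4.45 ± 0.23 and 5.01 ± 0.14 counts in the same order of tissues. Within mice, the left ventricle held a median of 2.36 times the kidney's summed CPM (range 1.951 to 2.997), and more in 8 of 8 mice on each of the 3 scales. The left ventricle held 1.86 times the muscle's summed CPM (1.7 to 2.46), also with 8 of 8 mice on each scale. Skeletal muscle against kidney depended on the scale: muscle was higher in 7 of 8 mice by TMM, in 0 of 8 by share of all counts and in 1 of 8 by share of expressed coding counts.

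**Figure D1:**
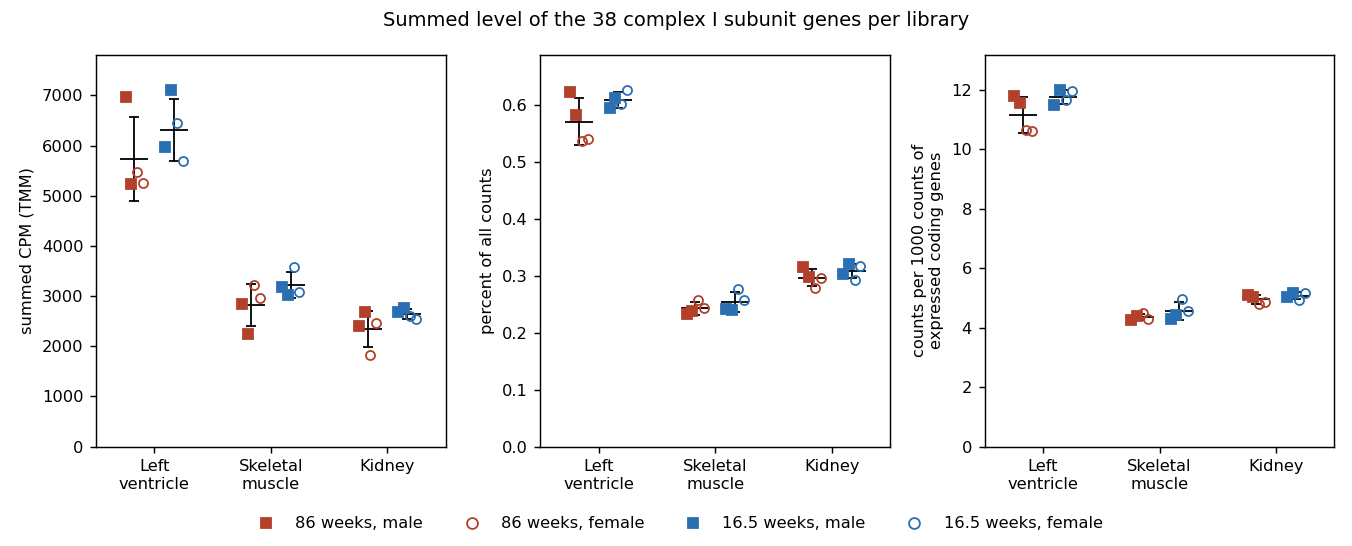
Summed level of the 38 complex I subunit genes in each of 24 libraries (left: CPM after TMM; middle: percent of all counts; right: counts per 1000 counts of expressed coding genes), with 86-week libraries left of 16.5-week libraries in each tissue. Points are libraries, horizontal bars are means and error bars SD (n = 4); left ventricle lies above both other tissues in each panel, and the means of skeletal muscle are above those of kidney by CPM alone.

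The first comparison set left ventricle against kidney, from a fit of all 24 libraries with terms for tissue and for age and sex within tissue. All 38 genes were higher in left ventricle in edgeR's quasi-likelihood test (adjusted p at most 0.000377, Benjamini-Hochberg over 42440 genes, threshold 0.05). Of all genes tested 16.2% were called higher in this comparison, and of expressed coding genes 28.4%. At least 2-fold higher were 26 of the 38, against 5.98% of all genes, and the 8 left ventricle levels lay above the 8 kidney levels without overlap for 38 of 38, against 8.25%. The median log2 change was 1.21 (0.44 for Ndufb4 to 1.88 for Ndufa5), while the median over all genes was 0.10 and over expressed coding genes -0.24. Under size factors, total count alone or TMM factors from expressed coding genes, all 38 were again called higher, with medians of 1.21, 0.93 and 1.46. By place in the complex the medians were 1.36 for the 3 core subunits of the NADH-oxidising module, 1.14 for 9 accessory subunits of the hydrophilic arm, 1.22 for 9 of the proximal membrane arm and 1.08 for 10 of the distal membrane arm. Within each of the accessory groups the changes ran over more than the difference between these medians. The levels of the members follow in this order, with log2 differences as the first tissue minus the second ± SE; a difference passed the test unless it is said not to have.

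**Figure D2:**
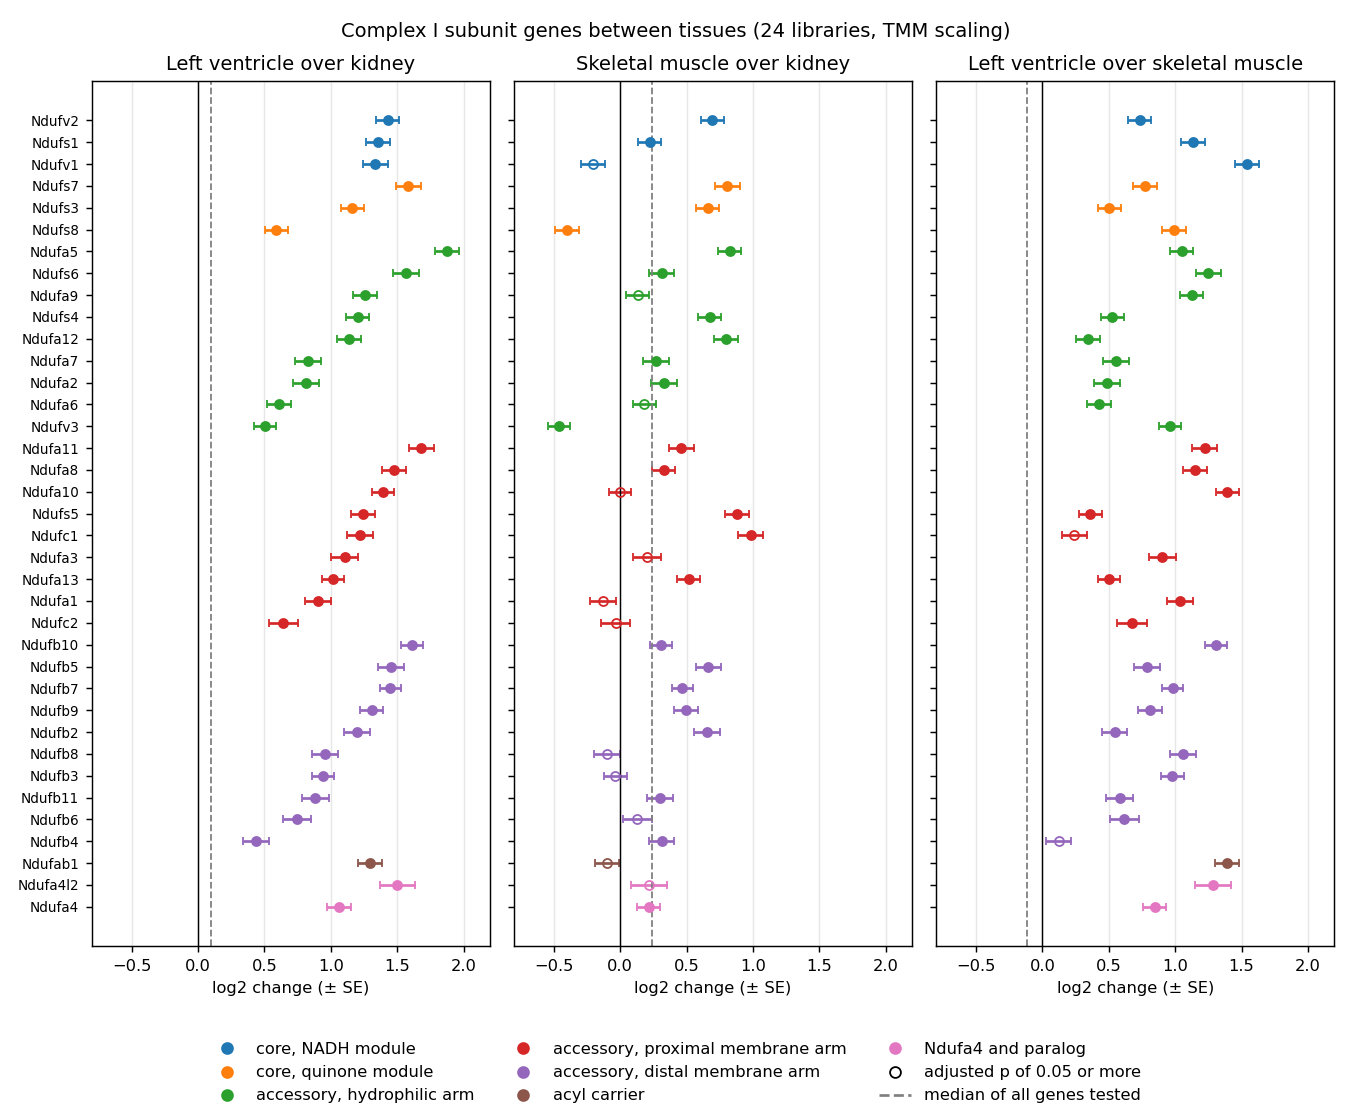
Log2 change of 37 of the 38 genes ± SE for left ventricle over kidney, skeletal muscle over kidney and left ventricle over skeletal muscle (24 libraries, TMM), coloured by place in the complex; open circles did not pass and the dashed line is the median of all genes tested. All 37 lie to the right of 0 and of the dashed line in the left and right panels, whereas in the middle panel they scatter around the dashed line at 0.24, and the sign there depends on the scaling.

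The 3 core subunits of the NADH module were each higher in left ventricle than in either other tissue. Ndufv1, which binds the flavin and NADH, had 336, 431 and 506 CPM in left ventricle, 103, 140.2 and 158 CPM in skeletal muscle and 110.4, 166 and 194 CPM in kidney. Ndufv1 levels in left ventricle stood above those of both other tissues without overlap, and those of muscle and kidney overlapped. Ndufv1 differed by 1.34 ± 0.092 log2 units between left ventricle and kidney and by 1.54 ± 0.092 between left ventricle and skeletal muscle. For Ndufv1 the log2 difference between skeletal muscle and kidney was -0.21 ± 0.090, which did not pass (adjusted p 0.0618, edgeR). The difference of Ndufv1 between left ventricle and skeletal muscle was the largest of the 38. Ndufv2, which carries an iron-sulfur cluster beside the flavin, had 171, 187 and 233 CPM in left ventricle, 80.4, 112 and 135 CPM in skeletal muscle and 57.8, 72.9 and 81.1 CPM in kidney. Ndufv2 levels in left ventricle stood above those of both other tissues without overlap, and those of muscle and kidney overlapped. Ndufv2 differed by 1.43 ± 0.089 log2 units between left ventricle and kidney and by 0.73 ± 0.087 between left ventricle and skeletal muscle. For Ndufv2 the log2 difference between skeletal muscle and kidney was 0.70 ± 0.087. Ndufs1, the largest subunit of the module and a holder of several iron-sulfur clusters, had 547, 636 and 779 CPM in left ventricle, 217, 286 and 312 CPM in skeletal muscle and 179, 250.5 and 285 CPM in kidney. Ndufs1 levels in left ventricle stood above those of both other tissues without overlap, and those of muscle and kidney overlapped. Ndufs1 differed by 1.36 ± 0.090 log2 units between left ventricle and kidney and by 1.13 ± 0.090 between left ventricle and skeletal muscle. For Ndufs1 the log2 difference between skeletal muscle and kidney was 0.22 ± 0.089, which did not pass with the mouse as a block (adjusted p 0.0624, edgeR). Ndufs1 took the largest share of the 38 genes' summed counts, 10.7% in left ventricle, 9.31% in muscle and 9.98% in kidney.

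Among the core subunits of the quinone module, Ndufs3 and Ndufs7 were higher in muscle than in kidney by TMM and Ndufs8 was lower. Ndufs7, the holder of the last cluster before quinone, had 114, 133 and 161 CPM in left ventricle, 53.4, 77.7 and 85.3 CPM in skeletal muscle and 31.9, 46.5 and 50.2 CPM in kidney. Ndufs7 levels in left ventricle stood above those of both other tissues without overlap, and every muscle library was above every kidney library. Ndufs7 differed by 1.58 ± 0.094 log2 units between left ventricle and kidney and by 0.77 ± 0.092 between left ventricle and skeletal muscle. For Ndufs7 the log2 difference between skeletal muscle and kidney was 0.81 ± 0.093. Ndufs3, a core subunit on the surface of the arm, had 134, 153 and 189 CPM in left ventricle, 84.0, 107 and 118 CPM in skeletal muscle and 51.7, 73.4 and 77.4 CPM in kidney. Ndufs3 levels in left ventricle stood above those of both other tissues without overlap, and every muscle library was above every kidney library. Ndufs3 differed by 1.16 ± 0.087 log2 units between left ventricle and kidney and by 0.50 ± 0.087 between left ventricle and skeletal muscle. For Ndufs3 the log2 difference between skeletal muscle and kidney was 0.66 ± 0.087. Ndufs8, which binds a pair of clusters ahead of the last, had 66.5, 74.3 and 90.5 CPM in left ventricle, 22.8, 38.2 and 49.1 CPM in skeletal muscle and 37.8, 52.5 and 53.7 CPM in kidney. Ndufs8 levels in left ventricle stood above those of both other tissues without overlap, and those of muscle and kidney overlapped. Ndufs8 differed by 0.59 ± 0.087 log2 units between left ventricle and kidney and by 0.99 ± 0.088 between left ventricle and skeletal muscle. For Ndufs8 the log2 difference between skeletal muscle and kidney was -0.40 ± 0.087. Under total count alone the difference of Ndufs3 between muscle and kidney was 0.05 (adjusted p 0.43, edgeR). Under TMM factors from expressed coding genes the difference of Ndufs8 between muscle and kidney was -0.0049 (adjusted p 0.919, edgeR).

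The 9 accessory subunits of the hydrophilic arm held both the largest left ventricle change of the 38 genes and the next to smallest, Ndufv3. Ndufa5, an accessory subunit bound beside Ndufs3 and encoded at chr6:24518666-24528013 of GRCm38.p6, had 225, 263 and 326 CPM in left ventricle, 101, 125 and 151 CPM in skeletal muscle and 59.8, 76.2 and 78.5 CPM in kidney. Ndufa5 levels in left ventricle stood above those of both other tissues without overlap, and every muscle library was above every kidney library. Ndufa5 differed by 1.88 ± 0.089 log2 units between left ventricle and kidney and by 1.05 ± 0.087 between left ventricle and skeletal muscle. For Ndufa5 the log2 difference between skeletal muscle and kidney was 0.83 ± 0.087. Ndufs6, a zinc-binding subunit needed to attach the NADH module, had 127, 157 and 179 CPM in left ventricle, 41.1, 64.5 and 83.5 CPM in skeletal muscle and 36.7, 52.9 and 60.0 CPM in kidney. Ndufs6 levels in left ventricle stood above those of both other tissues without overlap, and those of muscle and kidney overlapped. Ndufs6 differed by 1.57 ± 0.096 log2 units between left ventricle and kidney and by 1.25 ± 0.095 between left ventricle and skeletal muscle. For Ndufs6 the log2 difference between skeletal muscle and kidney was 0.31 ± 0.094. Ndufs4, whose loss in mice gives a model of Leigh syndrome, had 92.4, 109 and 131 CPM in left ventricle, 56.5, 72.6 and 85.2 CPM in skeletal muscle and 35.0, 49.6 and 51.0 CPM in kidney. Ndufs4 levels in left ventricle stood above those of both other tissues without overlap, and every muscle library was above every kidney library. Ndufs4 differed by 1.20 ± 0.088 log2 units between left ventricle and kidney and by 0.53 ± 0.087 between left ventricle and skeletal muscle. For Ndufs4 the log2 difference between skeletal muscle and kidney was 0.68 ± 0.087. Ndufa12, a paralog of the assembly factor Ndufaf2, had 46.5, 55.3 and 65.6 CPM in left ventricle, 33.0, 42.7 and 49.4 CPM in skeletal muscle and 20.7, 25.2 and 28.7 CPM in kidney. Ndufa12 levels in left ventricle stood above all kidney levels and overlapped those of muscle, and every muscle library was above every kidney library. Ndufa12 differed by 1.14 ± 0.090 log2 units between left ventricle and kidney and by 0.34 ± 0.089 between left ventricle and skeletal muscle. For Ndufa12 the log2 difference between skeletal muscle and kidney was 0.79 ± 0.089.

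The other 5 of this arm follow. Ndufa7, a small subunit of this arm, had 36.3, 41.1 and 47.4 CPM in left ventricle, 16.6, 27.3 and 36.6 CPM in skeletal muscle and 18.8, 23.3 and 26.8 CPM in kidney. Ndufa7 levels in left ventricle stood above all kidney levels and overlapped those of muscle, and muscle and kidney overlapped. Ndufa7 differed by 0.83 ± 0.098 log2 units between left ventricle and kidney and by 0.56 ± 0.098 between left ventricle and skeletal muscle. For Ndufa7 the log2 difference between skeletal muscle and kidney was 0.27 ± 0.098. Ndufa2, a subunit with a thioredoxin-like fold, had 72.4, 82.6 and 105 CPM in left ventricle, 40.3, 55.7 and 81.0 CPM in skeletal muscle and 34.9, 47.8 and 53.8 CPM in kidney. Ndufa2 levels in left ventricle stood above all kidney levels and overlapped those of muscle, and muscle and kidney overlapped. Ndufa2 differed by 0.82 ± 0.098 log2 units between left ventricle and kidney and by 0.49 ± 0.097 between left ventricle and skeletal muscle. For Ndufa2 the log2 difference between skeletal muscle and kidney was 0.33 ± 0.097. Ndufa6, a member of the LYR family that holds an acyl carrier protein, had 101, 119.9 and 149 CPM in left ventricle, 65.9, 86.9 and 112 CPM in skeletal muscle and 55.1, 85.7 and 88.5 CPM in kidney. Ndufa6 levels in left ventricle stood above all kidney levels and overlapped those of muscle, and muscle and kidney overlapped. Ndufa6 differed by 0.61 ± 0.089 log2 units between left ventricle and kidney and by 0.43 ± 0.089 between left ventricle and skeletal muscle. For Ndufa6 the log2 difference between skeletal muscle and kidney was 0.18 ± 0.088, which did not pass (adjusted p 0.0891, edgeR). Ndufv3, a small subunit attached to the NADH module, had 53.7, 61.6 and 71.6 CPM in left ventricle, 24.5, 29.3 and 40.9 CPM in skeletal muscle and 31.9, 44.4 and 49.96 CPM in kidney. Ndufv3 levels in left ventricle stood above those of both other tissues without overlap, and those of muscle and kidney overlapped. Ndufv3 differed by 0.51 ± 0.082 log2 units between left ventricle and kidney and by 0.96 ± 0.083 between left ventricle and skeletal muscle. For Ndufv3 the log2 difference between skeletal muscle and kidney was -0.46 ± 0.083. Ndufa9, a nucleotide-binding subunit near the junction of the arms, averaged 313 ± 43.1 CPM in left ventricle, 137 ± 18.6 CPM in skeletal muscle and 129 ± 15 CPM in kidney. Ndufa9 levels in left ventricle stood above those of both other tissues without overlap, and those of muscle and kidney overlapped. Ndufa9 differed by 1.26 ± 0.089 log2 units between left ventricle and kidney and by 1.12 ± 0.088 between left ventricle and skeletal muscle. For Ndufa9 the log2 difference between skeletal muscle and kidney was 0.13 ± 0.087, which did not pass (adjusted p 0.211, edgeR).

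Of the 9 accessory subunits of the proximal membrane arm, Ndufc1 and Ndufs5 differed least between left ventricle and muscle by TMM. On the same scale Ndufa10 and Ndufc2 differed least between muscle and kidney. Ndufc1, a small membrane-spanning subunit, had 63.6, 67.9 and 82.8 CPM in left ventricle, 34.4, 59.5 and 76.6 CPM in skeletal muscle and 23.1, 31.2 and 35.9 CPM in kidney. Ndufc1 levels in left ventricle stood above all kidney levels and overlapped those of muscle, and muscle and kidney overlapped. Ndufc1 differed by 1.22 ± 0.097 log2 units between left ventricle and kidney and by 0.24 ± 0.096 between left ventricle and skeletal muscle, which did not pass (adjusted p 0.0612, edgeR). For Ndufc1 the log2 difference between skeletal muscle and kidney was 0.98 ± 0.097. Ndufs5, a cysteine-rich subunit on the intermembrane side, had 70.7, 93.7 and 112 CPM in left ventricle, 56.1, 71.0 and 77.8 CPM in skeletal muscle and 30.8, 39.9 and 44.1 CPM in kidney. Ndufs5 levels in left ventricle stood above all kidney levels and overlapped those of muscle, and every muscle library was above every kidney library. Ndufs5 differed by 1.24 ± 0.091 log2 units between left ventricle and kidney and by 0.36 ± 0.090 between left ventricle and skeletal muscle. For Ndufs5 the log2 difference between skeletal muscle and kidney was 0.88 ± 0.090. Ndufa10, a subunit with the fold of a nucleoside kinase, had 238, 259 and 323 CPM in left ventricle, 78.2, 102 and 108 CPM in skeletal muscle and 72.4, 100.4 and 128 CPM in kidney. Ndufa10 levels in left ventricle stood above those of both other tissues without overlap, and those of muscle and kidney overlapped. Ndufa10 differed by 1.39 ± 0.086 log2 units between left ventricle and kidney and by 1.39 ± 0.086 between left ventricle and skeletal muscle. For Ndufa10 the log2 difference between skeletal muscle and kidney was -0.00025 ± 0.084, which did not pass (adjusted p 1, edgeR). Ndufa11, a membrane subunit, had 96.3, 107 and 138 CPM in left ventricle, 31.3, 47.0 and 52.8 CPM in skeletal muscle and 23.0, 35.5 and 39.0 CPM in kidney. Ndufa11 levels in left ventricle stood above those of both other tissues without overlap, and those of muscle and kidney overlapped. Ndufa11 differed by 1.68 ± 0.097 log2 units between left ventricle and kidney and by 1.22 ± 0.095 between left ventricle and skeletal muscle. For Ndufa11 the log2 difference between skeletal muscle and kidney was 0.46 ± 0.094. Ndufa13, also known as Grim19, had 119, 132 and 159.9 CPM in left ventricle, 67.5, 94.1 and 121 CPM in skeletal muscle and 48.3, 67.7 and 75.9 CPM in kidney. Ndufa13 levels in left ventricle stood above all kidney levels and overlapped those of muscle, and muscle and kidney overlapped. Ndufa13 differed by 1.02 ± 0.085 log2 units between left ventricle and kidney and by 0.50 ± 0.084 between left ventricle and skeletal muscle. For Ndufa13 the log2 difference between skeletal muscle and kidney was 0.51 ± 0.084. Ndufc2, a partner of Ndufc1 in the membrane, had 24.5, 29.1 and 38.4 CPM in left ventricle, 9.99, 19.3 and 23.4 CPM in skeletal muscle and 13.8, 19.4 and 22.7 CPM in kidney. Ndufc2 levels in left ventricle stood above those of both other tissues without overlap, and those of muscle and kidney overlapped. Ndufc2 differed by 0.64 ± 0.11 log2 units between left ventricle and kidney and by 0.67 ± 0.11 between left ventricle and skeletal muscle. For Ndufc2 the log2 difference between skeletal muscle and kidney was -0.033 ± 0.11, which did not pass (adjusted p 0.822, edgeR). Ndufa8, a cysteine-rich subunit on the intermembrane side, averaged 171 ± 19.8 CPM in left ventricle, 73.5 ± 10.9 CPM in skeletal muscle and 60.4 ± 6.17 CPM in kidney. Ndufa8 levels in left ventricle stood above those of both other tissues without overlap, and those of muscle and kidney overlapped. Ndufa8 differed by 1.47 ± 0.091 log2 units between left ventricle and kidney and by 1.15 ± 0.090 between left ventricle and skeletal muscle. For Ndufa8 the log2 difference between skeletal muscle and kidney was 0.33 ± 0.089. Ndufa3, a small membrane subunit, averaged 15.4 ± 2.1 CPM in left ventricle, 7.86 ± 1.56 CPM in skeletal muscle and 7.02 ± 1.05 CPM in kidney. Ndufa3 levels in left ventricle stood above those of both other tissues without overlap, and those of muscle and kidney overlapped. Ndufa3 differed by 1.11 ± 0.10 log2 units between left ventricle and kidney and by 0.90 ± 0.10 between left ventricle and skeletal muscle. For Ndufa3 the log2 difference between skeletal muscle and kidney was 0.20 ± 0.10, which did not pass (adjusted p 0.104, edgeR). Ndufa1, an X-linked subunit encoded at chrX:37187588-37191163, averaged 112 ± 9.25 CPM in left ventricle, 52.8 ± 15.6 CPM in skeletal muscle and 58.8 ± 8.44 CPM in kidney. Ndufa1 levels in left ventricle stood above those of both other tissues without overlap, and those of muscle and kidney overlapped. Ndufa1 differed by 0.91 ± 0.099 log2 units between left ventricle and kidney and by 1.04 ± 0.099 between left ventricle and skeletal muscle. For Ndufa1 the log2 difference between skeletal muscle and kidney was -0.13 ± 0.098, which did not pass (adjusted p 0.275, edgeR).

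The 10 accessory subunits of the distal membrane arm ran from Ndufb10, among the 3 largest left ventricle changes over kidney, to Ndufb4, the smallest. Ndufb10, a cysteine-rich subunit of the intermembrane side, had 113, 129.8 and 153 CPM in left ventricle, 38.9, 51.5 and 61.2 CPM in skeletal muscle and 34.3, 43.9 and 46.2 CPM in kidney. Ndufb10 levels in left ventricle stood above those of both other tissues without overlap, and those of muscle and kidney overlapped. Ndufb10 differed by 1.61 ± 0.082 log2 units between left ventricle and kidney and by 1.31 ± 0.082 between left ventricle and skeletal muscle. For Ndufb10 the log2 difference between skeletal muscle and kidney was 0.31 ± 0.081. Ndufb4, a membrane-spanning subunit encoded at chr16:37647170-37654453, had 32.3, 34.9 and 40.6 CPM in left ventricle, 20.3, 31.4 and 38.6 CPM in skeletal muscle and 17.4, 25.8 and 31.6 CPM in kidney. Ndufb4 levels in left ventricle stood above all kidney levels and overlapped those of muscle, and muscle and kidney overlapped. Ndufb4 differed by 0.44 ± 0.094 log2 units between left ventricle and kidney and by 0.12 ± 0.094 between left ventricle and skeletal muscle, which did not pass (adjusted p 0.375, edgeR). For Ndufb4 the log2 difference between skeletal muscle and kidney was 0.31 ± 0.094. Ndufb6, a membrane-spanning subunit, had 65.7, 80.2 and 115 CPM in left ventricle, 34.2, 54.8 and 66.5 CPM in skeletal muscle and 32.2, 52.1 and 56.0 CPM in kidney. Ndufb6 levels in left ventricle stood above all kidney levels and overlapped those of muscle, and muscle and kidney overlapped. Ndufb6 differed by 0.75 ± 0.11 log2 units between left ventricle and kidney and by 0.62 ± 0.11 between left ventricle and skeletal muscle. For Ndufb6 the log2 difference between skeletal muscle and kidney was 0.13 ± 0.11, which did not pass (adjusted p 0.324, edgeR). Ndufb11, the other X-linked subunit, encoded at chrX:20615326-20617619, had 79.4, 113 and 144 CPM in left ventricle, 48.7, 77.1 and 89.3 CPM in skeletal muscle and 46.5, 63.4 and 69.9 CPM in kidney. Ndufb11 levels in left ventricle stood above all kidney levels and overlapped those of muscle, and muscle and kidney overlapped. Ndufb11 differed by 0.88 ± 0.10 log2 units between left ventricle and kidney and by 0.58 ± 0.10 between left ventricle and skeletal muscle. For Ndufb11 the log2 difference between skeletal muscle and kidney was 0.30 ± 0.10.

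Ndufb9, an LYR protein at the tip of the arm, averaged 241 ± 32.4 CPM in left ventricle, 131 ± 15.2 CPM in skeletal muscle and 95.6 ± 9.79 CPM in kidney. Ndufb9 levels in left ventricle stood above those of both other tissues without overlap, and those of muscle and kidney overlapped. Ndufb9 differed by 1.31 ± 0.089 log2 units between left ventricle and kidney and by 0.81 ± 0.088 between left ventricle and skeletal muscle. For Ndufb9 the log2 difference between skeletal muscle and kidney was 0.50 ± 0.088. Ndufb7, a cysteine-rich subunit, averaged 88.5 ± 10.9 CPM in left ventricle, 42.6 ± 3.79 CPM in skeletal muscle and 31.8 ± 3.32 CPM in kidney. Ndufb7 levels in left ventricle stood above those of both other tissues without overlap, and every muscle library was above every kidney library. Ndufb7 differed by 1.45 ± 0.081 log2 units between left ventricle and kidney and by 0.98 ± 0.081 between left ventricle and skeletal muscle. For Ndufb7 the log2 difference between skeletal muscle and kidney was 0.47 ± 0.080. Ndufb5, a membrane-spanning subunit, averaged 212 ± 29.4 CPM in left ventricle, 117 ± 15.5 CPM in skeletal muscle and 76.5 ± 11.3 CPM in kidney. Ndufb5 levels in left ventricle stood above those of both other tissues without overlap, and those of muscle and kidney overlapped. Ndufb5 differed by 1.45 ± 0.097 log2 units between left ventricle and kidney and by 0.79 ± 0.096 between left ventricle and skeletal muscle. For Ndufb5 the log2 difference between skeletal muscle and kidney was 0.66 ± 0.095. These 3 subunits were called higher in muscle than in kidney, and of them only Ndufb5 had a positive difference there under total count alone (0.057, adjusted p 0.385, edgeR). Ndufb2, a small subunit of this arm, averaged 76.0 ± 11.9 CPM in left ventricle, 49.9 ± 9.76 CPM in skeletal muscle and 32.4 ± 4.2 CPM in kidney. Ndufb2 levels in left ventricle stood above those of both other tissues without overlap, and those of muscle and kidney overlapped. Ndufb2 differed by 1.20 ± 0.096 log2 units between left ventricle and kidney and by 0.55 ± 0.095 between left ventricle and skeletal muscle. For Ndufb2 the log2 difference between skeletal muscle and kidney was 0.65 ± 0.095. Ndufb8, a membrane-spanning subunit used as a marker of assembled complex I on blots, averaged 168 ± 27.6 CPM in left ventricle, 77.2 ± 13.0 CPM in skeletal muscle and 84.6 ± 9.67 CPM in kidney. Ndufb8 levels in left ventricle stood above those of both other tissues without overlap, and those of muscle and kidney overlapped. Ndufb8 differed by 0.96 ± 0.098 log2 units between left ventricle and kidney and by 1.06 ± 0.098 between left ventricle and skeletal muscle. For Ndufb8 the log2 difference between skeletal muscle and kidney was -0.10 ± 0.097, which did not pass (adjusted p 0.417, edgeR). Ndufb3, a small membrane subunit, averaged 101 ± 13.5 CPM in left ventricle, 49.2 ± 7.96 CPM in skeletal muscle and 52.1 ± 7.11 CPM in kidney. Ndufb3 levels in left ventricle stood above those of both other tissues without overlap, and those of muscle and kidney overlapped. Ndufb3 differed by 0.94 ± 0.086 log2 units between left ventricle and kidney and by 0.98 ± 0.086 between left ventricle and skeletal muscle. For Ndufb3 the log2 difference between skeletal muscle and kidney was -0.037 ± 0.085, which did not pass (adjusted p 0.739, edgeR).

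Ndufab1, the mitochondrial acyl carrier protein, which also serves fatty acid synthesis and iron-sulfur cluster assembly, had 151, 168 and 206 CPM in left ventricle, 45.5, 64.9 and 71.5 CPM in skeletal muscle and 53.6, 71.4 and 76.7 CPM in kidney. Ndufab1 levels in left ventricle stood above those of both other tissues without overlap, and those of muscle and kidney overlapped. Ndufab1 differed by 1.29 ± 0.090 log2 units between left ventricle and kidney and by 1.39 ± 0.091 between left ventricle and skeletal muscle. For Ndufab1 the log2 difference between skeletal muscle and kidney was -0.10 ± 0.089, which did not pass (adjusted p 0.371, edgeR). Ndufa4, a complex IV subunit by current assignment, had 175, 201 and 235 CPM in left ventricle, 82.0, 109 and 127 CPM in skeletal muscle and 64.2, 96.1 and 123 CPM in kidney. Ndufa4 levels in left ventricle stood above those of both other tissues without overlap, and those of muscle and kidney overlapped. Ndufa4 differed by 1.06 ± 0.088 log2 units between left ventricle and kidney and by 0.85 ± 0.088 between left ventricle and skeletal muscle. For Ndufa4 the log2 difference between skeletal muscle and kidney was 0.22 ± 0.087, which did not pass with the mouse as a block (adjusted p 0.0642, edgeR). Ndufa4l2, its hypoxia-inducible paralog and a gene used as a pericyte marker, had 4.30, 4.93 and 6.43 CPM in left ventricle, 1.30, 2.05 and 2.54 CPM in skeletal muscle and 1.39, 1.72 and 2.29 CPM in kidney. Ndufa4l2 levels in left ventricle stood above those of both other tissues without overlap, and those of muscle and kidney overlapped. Ndufa4l2 differed by 1.5 ± 0.13 log2 units between left ventricle and kidney and by 1.29 ± 0.13 between left ventricle and skeletal muscle. For Ndufa4l2 the log2 difference between skeletal muscle and kidney was 0.22 ± 0.14, which did not pass (adjusted p 0.194, edgeR). Per kilobase of coding transcript, Ndufa4 averaged 434 CPM in left ventricle, 229.6 in muscle and 206 in kidney and Ndufa4l2 5.42, 2.12 and 1.89 CPM. Along with Ndufa4l2, 7 of 8 pericyte markers were higher in left ventricle than in kidney, among them Abcc9 (3.94 ± 0.10), Rgs5 (3.45 ± 0.11) and Higd1b (2.78 ± 0.15) log2 units, and the summed CPM of the 8 ran from 868 to 1100.4 in left ventricle, 386 to 616 in skeletal muscle and 130 to 214 in kidney. Between skeletal muscle and kidney 4 of the 8 were higher in muscle and 2 lower by TMM, from -1.27 to 3.69 log2 units. Under total count alone 2 were higher and 4 lower. Of 8 known targets of hypoxia signalling 5 were higher and 2 lower in left ventricle than in kidney, with Egln3 (2.43 ± 0.20), Pdk1 (2.28 ± 0.085) and Car9 (-2.02 ± 0.11) moving most. The part of pericytes or oxygen supply in the level of Ndufa4l2 was not tested.

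The promoters of the members were searched for 6 motifs of factors known to act on genes of oxidative phosphorylation or on housekeeping genes, on both strands and from 250 bases before to 50 after the annotated start. RefSeq promoters (GRCm38.p6) matched 33 of the 38 genes by symbol. The NRF1 motif GCGCANGCG, for nuclear respiratory factor 1, was found in 8 of 33 (24.2%), against 7.03% of 27025 promoters of all genes and 16.6% of 6666 promoters of expressed coding genes. The YY1 motif AAGATGGCG was found in 5 of 33 (15.2%), against 1.64% and 4.22%. The GGGCGG box of SP1 was in 45.5% of the members' promoters, 38.2% of all and 71.2% of expressed coding ones, and CCAAT was in 30.3, 41.1 and 42.0%. The ETS motif CCGGAAGT and the TNAAGGTCA motif of estrogen-related receptors were each found in 1 of 33 (3.03%), against 4.31% and 1.43% of all promoters and 9.69% and 0.870% of expressed coding ones. Among the 8 genes with the NRF1 motif were Ndufa5, Ndufa11 and Ndufs6, with changes of 1.88, 1.68 and 1.57 between left ventricle and kidney, and also Ndufb4, with the smallest of the 38 (0.44). The 100 bases before the start of these 4 are shown to set the motif beside that range, 5′ to 3′ on the gene's strand with the motif in capitals (either strand; in Ndufa11 matches on both strands overlap). The start is position 0.
Ndufa5 NRF1, chr6:24527691-24527790, minus strand: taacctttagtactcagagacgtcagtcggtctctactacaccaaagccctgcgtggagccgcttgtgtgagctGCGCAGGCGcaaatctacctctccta
Ndufa11 NRF1, chr17:56717662-56717761, plus strand: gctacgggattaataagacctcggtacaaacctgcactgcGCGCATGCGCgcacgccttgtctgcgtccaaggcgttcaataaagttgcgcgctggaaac
Ndufs6 NRF1, chr13:73328483-73328582, minus strand: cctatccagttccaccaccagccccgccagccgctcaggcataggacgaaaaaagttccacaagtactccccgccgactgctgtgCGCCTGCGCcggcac
Ndufb4 NRF1, chr16:37654369-37654468, minus strand: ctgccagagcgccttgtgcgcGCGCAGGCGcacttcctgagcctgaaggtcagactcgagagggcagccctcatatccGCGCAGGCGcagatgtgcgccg
Ndufb4 holds the motif at 2 places in this stretch and Ndufa5 at 1. In 5 genes the YY1 motif lay just after the start, and 30 bases around it are shown for Ndufs7, with a change of 1.58 between left ventricle and kidney, and for Ndufc1, with the largest change between muscle and kidney (0.98); capitals mark the motif.
Ndufs7 YY1, chr10:80249462-80249491, plus strand: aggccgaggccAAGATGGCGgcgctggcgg
Ndufc1 YY1, chr3:51408915-51408944, minus strand: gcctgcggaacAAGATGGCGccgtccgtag
A match describes these letters and no binding was measured.

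Between left ventricle and skeletal muscle, 36 of 38 genes were higher in left ventricle by edgeR's quasi-likelihood test, against 17% of all genes and 43.2% of expressed coding genes. At least 2-fold higher were 13, against 6.36% of all genes, and 28 of 38 had no overlap of the 8 and 8 levels, against 11.5%. The median change was 0.87 (0.12 for Ndufb4 to 1.54 for Ndufv1), with -0.12 over all genes and 0.11 over expressed coding genes. The 6 largest were Ndufv1 (1.54 ± 0.092), Ndufa10 (1.39 ± 0.086), Ndufab1 (1.39 ± 0.091), Ndufb10 (1.31 ± 0.082), Ndufa4l2 (1.29 ± 0.13) and Ndufs6 (1.25 ± 0.095), and the 6 smallest that passed were Ndufs3 (0.50 ± 0.087), Ndufa13 (0.50 ± 0.084), Ndufa2 (0.49 ± 0.097), Ndufa6 (0.43 ± 0.089), Ndufs5 (0.36 ± 0.090) and Ndufa12 (0.34 ± 0.089). Ndufc1 and Ndufb4 did not pass (adjusted p 0.0612 and 0.375, edgeR). The core NADH module had a median of 1.13 and the accessory hydrophilic arm one of 0.56. Under total count alone the median over the 38 genes was 1.19 and under TMM factors from expressed coding genes 0.72, where Ndufb4 alone had a negative change and did not pass (adjusted p 0.781, edgeR).

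Between skeletal muscle and kidney the changes were smaller than those of left ventricle and went both ways. By TMM 24 were higher in muscle and 2 were lower (edgeR's quasi-likelihood test), against 24.5% of all genes and 28% of expressed coding genes called higher and 24.2% of all genes called lower. None was at least 2-fold higher, against 6.61% of all genes, and 7 of 38 had no overlap of levels in the higher direction, against 6.55%: Ndufa5, Ndufa12, Ndufb7, Ndufs3, Ndufs4, Ndufs5 and Ndufs7. The median change was 0.31, with 0.24 over all genes and -0.40 over expressed coding genes. The 6 largest were Ndufc1 (0.98 ± 0.097), Ndufs5 (0.88 ± 0.090), Ndufa5 (0.83 ± 0.087), Ndufs7 (0.81 ± 0.093), Ndufa12 (0.79 ± 0.089) and Ndufv2 (0.70 ± 0.087), and the 2 lower were Ndufs8 (-0.40 ± 0.087) and Ndufv3 (-0.46 ± 0.083). The next smallest that passed were Ndufa4, Ndufs1, Ndufa7 and Ndufb11, at 0.22, 0.22, 0.27 and 0.30, and each of these 4 was negative under total count alone (-0.39, -0.39, -0.34 and -0.31). With the mouse as a block, Ndufa4 and Ndufs1 did not pass, and leaving out any of 6 mice (Ndufa4) or 7 mice (Ndufs1) also ended the call.

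The direction of the 38 genes between muscle and kidney hung on the scaling. Total count alone moved the median of all genes by -0.60 and that of the 38 genes to -0.30, with 5 called higher and 25 lower. TMM factors from expressed coding genes moved the median of all genes by 0.40 and that of the 38 to 0.71, with 36 called higher and 0 lower. Of all genes called, 13.1% were higher in muscle under total count alone and 74.9% under TMM factors from expressed coding genes. The 5 genes called higher in muscle under each of these scalings were Ndufc1, Ndufs5, Ndufa5, Ndufs7 and Ndufa12, and they were so also under size factors. Ndufs8 and Ndufv3 were lower under TMM, size factors and total count alone and did not pass under TMM factors from expressed coding genes (-0.0049 and -0.060, adjusted p 0.919 and 0.325, edgeR). Another scaling shifts every gene alike, so distances between medians say nothing of stability: by TMM the median of the 38 genes was 0.31, that of all genes 0.24 and that of expressed coding genes -0.40. Without the 2 libraries that stood apart, 24 of 38 genes were higher in muscle than in kidney, with a median of 0.30.

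**Figure D3:**
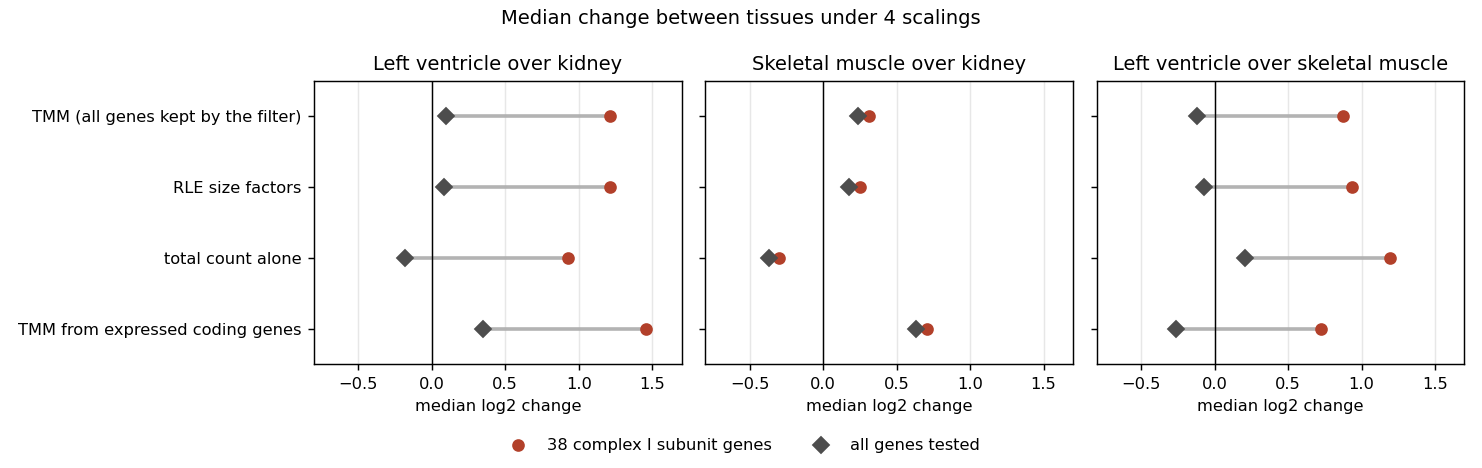
Median log2 change of the 38 complex I subunit genes (circles) and of all genes tested (diamonds) under 4 scalings, for each pair of tissues. In the middle panel both medians cross 0 together, from -0.30 for the 38 genes under total count alone to 0.71 under TMM factors from expressed coding genes; in the left and right panels the circles stay right of 0 under each scaling.

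Shares within the 38 genes do not depend on scaling, and they shifted for a few subunits. Ndufv1 made up 6.99% in left ventricle (range 6.39 to 7.51), 4.56% in skeletal muscle (range 4.19 to 4.86) and 6.59% in kidney (range 6.05 to 7.25) of the summed CPM of the 38. Muscle therefore had a smaller share of this subunit than either other tissue, with no overlap. Ndufc1 made up 1.19% in left ventricle (range 1.15 to 1.23), 1.91% in skeletal muscle (range 1.54 to 2.14) and 1.21% in kidney (range 1.07 to 1.42), and Ndufs5 1.57% in left ventricle (range 1.29 to 1.71), 2.31% in skeletal muscle (range 2.06 to 2.5) and 1.57% in kidney (range 1.42 to 1.69). These small membrane-arm subunits had their largest share in muscle. Ndufs8 made up 1.28% in left ventricle (range 1.22 to 1.31), 1.22% in skeletal muscle (range 1.02 to 1.37) and 2.01% in kidney (range 1.93 to 2.12), and Ndufv3 1.04% in left ventricle (range 0.982 to 1.15), 1.01% in skeletal muscle (range 0.951 to 1.14) and 1.75% in kidney (range 1.64 to 1.92). Kidney had the largest share of both. Ndufa5 made up 4.48% in left ventricle (range 4.10 to 4.70), 4.12% in skeletal muscle (range 3.77 to 4.53) and 2.91% in kidney (range 2.42 to 3.28), the smallest share being that of kidney. Per kilobase of coding transcript, so that genes of different length can be set side by side, the mean levels in left ventricle were high for Ndufa4 (434 CPM per kb), Ndufb9 (343), Ndufb5 (339.9) and Ndufa6 (324), and lowest for Ndufa4l2 (5.42), Ndufb2 (17.4) and Ndufa3 (29.8). The length was the median of a gene's annotated coding transcripts. It was 4371 bases for Ndufb2 and 659 for Ndufb6 of the same arm, so the low place of Ndufb2 depends on the length taken. The high places depend on it as well. Per kilobase of all annotated exons, left ventricle means were 147 CPM for Ndufa4, 234 for Ndufb9, 42.5 for Ndufb5 and 68.8 for Ndufa6. On that length Ndufa1 (266) and Ndufa5 (262) were highest.

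Of the 3 processed pseudogenes, copies of a spliced transcript put back into the genome, Ndufb4c is identical to the Ndufb4 transcript over 390 of its 390 bases. It took 22.4 ± 0.85% of the pair's counts in left ventricle, 21.6 ± 0.74% in muscle and 20.3 ± 1.03% in kidney (SD, n = 8), so the level of Ndufb4 is uncertain. Summed, the pair had 46.2 ± 4.13, 40.2 ± 7.17 and 33.0 ± 6.09 CPM, with log2 ratios of the means of 0.48 for left ventricle over kidney, 0.20 for left ventricle over skeletal muscle and 0.28 for skeletal muscle over kidney. Ndufs6b, 96.6% identical to Ndufs6 over 348 bases, took 3.66 to 3.88% of its pair on average in the 3 tissues, and Ndufa11b, 94.8% identical over 424 bases, took 0.221 to 0.485%.

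The 7 subunits encoded by mitochondrial DNA, which form the core of the membrane arm, moved with the nuclear genes between left ventricle and the other tissues. All 7 were higher in left ventricle than in kidney (median 1.41), with mt-Nd2 (1.54 ± 0.11), mt-Nd3 (1.51 ± 0.13) and mt-Nd1 (1.47 ± 0.11) log2 units moving most, and all 7 than in skeletal muscle (median 1.18), with mt-Nd5 (1.48 ± 0.11), mt-Nd4 (1.25 ± 0.11) and mt-Nd4l (1.18 ± 0.094). Between skeletal muscle and kidney 4 of 7 were called higher in muscle by TMM, with mt-Nd2 (0.44 ± 0.11), mt-Nd1 (0.37 ± 0.11) and mt-Nd3 (0.33 ± 0.12), whereas under total count alone 7 of 7 were lower. These 7 genes far outnumbered the nuclear ones in counts: the ratio of the 38 genes' counts to theirs was 0.239 ± 0.020 in left ventricle, 0.298 ± 0.042 in muscle and 0.268 ± 0.022 in kidney (SD, n = 8 each). The 3 tissues overlapped in this ratio.

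Assembly factors, the proteins that build complex I without staying in it, moved in both directions between tissues. Of 17 tested, 11 were higher and 5 lower in left ventricle than in kidney (median 0.34), with Acad9 (-0.90 ± 0.087), Ndufaf1 (0.81 ± 0.085) and Nubpl (-0.65 ± 0.088) moving most; under total count alone 5 were higher and 6 lower. Acad9 is a flavoprotein of the assembly intermediate that also oxidises fatty acids, Ndufaf1 its partner and Nubpl an iron-sulfur delivery protein. Between left ventricle and skeletal muscle 10 were higher and 2 lower (median 0.32), with Foxred1 (1.5 ± 0.088), Ndufaf5 (-1.22 ± 0.10) and Ndufaf3 (0.79 ± 0.089). Between skeletal muscle and kidney 7 were higher and 7 lower by TMM (median 0.035), with Ndufaf5 (1.65 ± 0.10), Dmac2 (-1.24 ± 0.072) and Acad9 (-1.22 ± 0.088), and 1 higher and 16 lower under total count alone. Ndufaf5, which modifies the core subunit Ndufs7, had 10.3 ± 1.34 CPM in left ventricle, 23.1 ± 5.29 CPM in skeletal muscle and 7.53 ± 1.18 CPM in kidney (SD, n = 8 each). The counts of the 38 subunit genes came to 17.2 ± 0.59 times those of the assembly factors in left ventricle, 11.1 ± 0.36 times in skeletal muscle and 7.65 ± 0.27 times in kidney. This ratio within libraries needs no scaling, and the 3 tissues did not overlap (16.4 to 18, 10.7 to 11.9 and 7.21 to 8.11).

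The nuclear genes of the other respiratory complexes were mostly higher in left ventricle, as those of complex I were. All 4 subunits of complex II (succinate dehydrogenase), 9 of 9 of complex III, 12 of 14 of complex IV and 15 of 15 of complex V (ATP synthase) were higher in left ventricle than in kidney, with medians of 0.84, 1.29, 1.27 and 1.25. The largest were Sdhb (1.26 ± 0.090), Sdha (0.91 ± 0.092) and Sdhd (0.77 ± 0.092) in complex II, Uqcrc1 (1.56 ± 0.093), Uqcrq (1.47 ± 0.085) and Uqcrb (1.36 ± 0.095) in complex III, Cox6a2 (8.69 ± 0.19), Cox8b (7.04 ± 0.29) and Cox7a1 (5.81 ± 0.12) in complex IV and Atp5g1 (2.15 ± 0.091), Atp5o (1.73 ± 0.091) and Atp5h (1.59 ± 0.090) in complex V. Cox6a2, Cox8b and Cox7a1 are the heart and muscle isoforms of their subunits. The other 2 genes of complex IV were lower in left ventricle than in kidney: Cox6a1 (-2.55 ± 0.15) and Cox8a (-1.97 ± 0.11), the isoforms of Cox6a2 and Cox8b found in most other tissues. Against skeletal muscle, 4 of 4, 9 of 9, 14 of 14 and 15 of 15 were higher in left ventricle, with medians of 1.05, 1.31, 1.24 and 1.01, led by Sdhb (1.47 ± 0.090), Cyc1 (1.57 ± 0.11), Cox6a1 (2.16 ± 0.15) and Atp5g3 (1.79 ± 0.10). Between skeletal muscle and kidney the medians were -0.25, 0.050, 0.11 and 0.31 by TMM, with 0 of 4, 2 of 9, 6 of 14 and 9 of 15 called higher and 2, 1, 4 and 3 called lower; under total count alone all 4 medians were negative, at -0.86, -0.56, -0.50 and -0.30.

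Within each tissue, the counts of complex I subunit genes in a library stood in a narrow ratio to those of each other complex. They came to 0.631 ± 0.0082 times those of complex V in left ventricle, 0.796 ± 0.021 times in skeletal muscle and 0.608 ± 0.015 times in kidney (SD, n = 8 each). Over complex IV the ratio was 1.93 ± 0.057, 2.46 ± 0.053 and 1.89 ± 0.10, over complex III 2.38 ± 0.038, 2.93 ± 0.094 and 2.49 ± 0.039 and over complex II 3.04 ± 0.067, 3.42 ± 0.16 and 2.45 ± 0.065 in the same order of tissues. Skeletal muscle had the highest ratio to each of the 4 complexes in every library, with no overlap with either other tissue. Over the markers of mitochondrial mass listed below, muscle instead had the lowest ratio, 0.894 ± 0.035 (range 0.844 to 0.941). Kidney had the highest, 1.94 ± 0.11 (range 1.76 to 2.08). Left ventricle lay between them at 1.43 ± 0.039 (range 1.37 to 1.49), so these ranges did not overlap either.

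**Figure D4:**
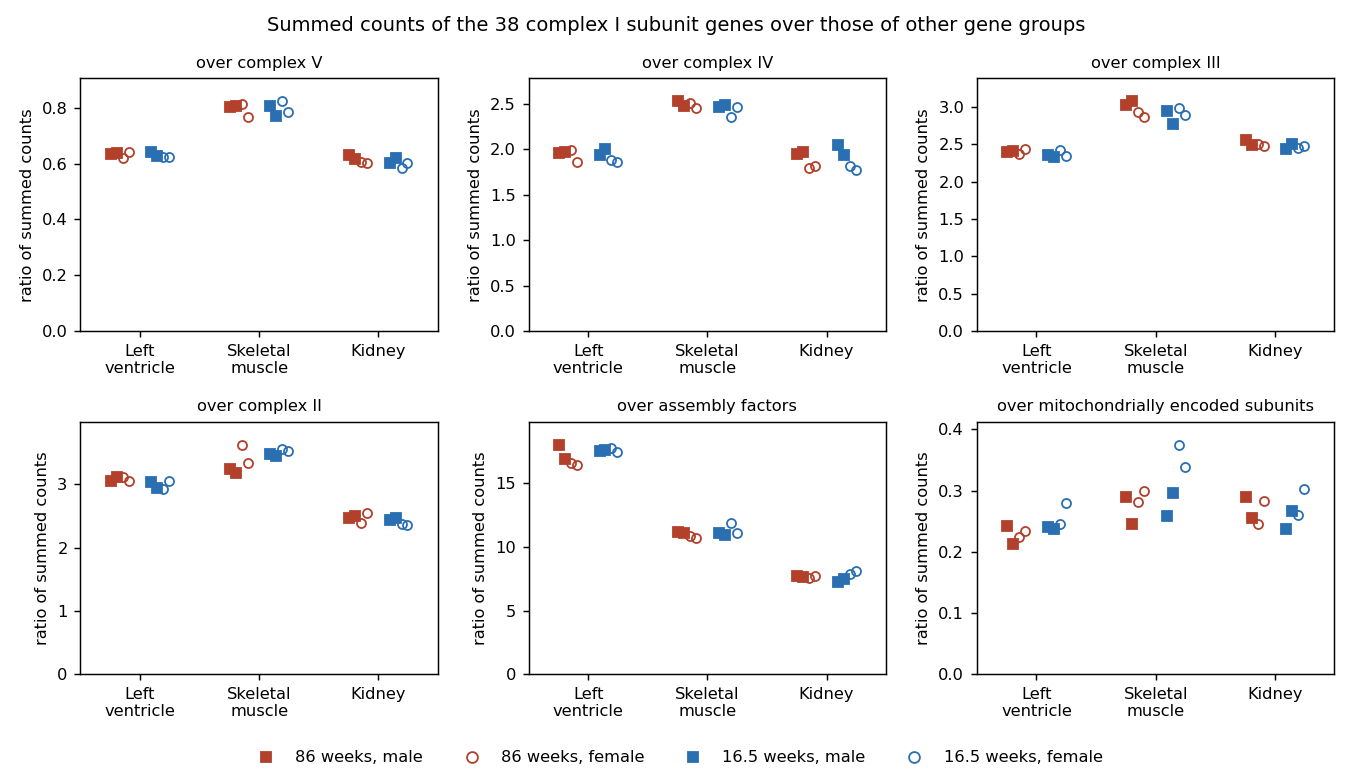
Summed counts of the 38 complex I subunit genes divided by those of another group of genes in the same library, with 86-week libraries left of 16.5-week libraries in each tissue; points are libraries. Skeletal muscle lies above both other tissues over complexes II, III, IV and V, the 3 tissues separate over assembly factors, and they overlap over the mitochondrially encoded subunits.

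Regulators of mitochondrial gene expression and markers of mitochondrial mass were read beside these values. Of 11 regulators 3 were higher and 4 lower in left ventricle than in kidney (median 0.056), with Perm1 (5.19 ± 0.11), Ppargc1b (0.94 ± 0.089) and Esrrg (-0.73 ± 0.12); under TMM factors from expressed coding genes 7 were higher and 4 lower. Perm1 is a muscle regulator induced by the coactivators of the PGC-1 family, and Ppargc1b is a coactivator of that family. Against skeletal muscle 8 were higher and 2 lower in left ventricle, with Esrrg (3.14 ± 0.13), Ppara (2.89 ± 0.11) and Esrrb (2.57 ± 0.11), nuclear receptors of oxidative metabolism. Between skeletal muscle and kidney 2 were higher and 9 lower by TMM, with Esrrg (-3.87 ± 0.13), Ppara (-3.52 ± 0.11) and Perm1 (3.28 ± 0.10), and 1 higher and 10 lower under total count alone. Esrrg averaged 45.7 ± 5.28 CPM in left ventricle, 4.98 ± 1.5 CPM in skeletal muscle and 74.7 ± 8.17 CPM in kidney. Of 9 markers of mitochondrial mass 6 were higher and 2 lower in left ventricle than in kidney, with Slc25a4 (4.27 ± 0.11), Cs (2.23 ± 0.096) and Vdac3 (1.46 ± 0.093), and 5 higher and 2 lower than in skeletal muscle, with Hspd1 (0.89 ± 0.094), Cs (0.85 ± 0.092) and Vdac3 (-0.81 ± 0.092). In skeletal muscle 6 were higher and 3 lower than in kidney by TMM, with Slc25a4 (3.79 ± 0.11), Vdac3 (2.26 ± 0.096) and Cs (1.38 ± 0.093). Slc25a4 is the ADP/ATP carrier of muscle and Cs encodes citrate synthase. The part of any of these in the subunit levels was not tested.

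The next question was whether the subunit genes differed with age within a tissue. None of the 38 passed the test for 86 against 16.5 weeks in any tissue (edgeR's quasi-likelihood test, 8 libraries per tissue, terms for age and sex), where 0.0741% of all genes were called in left ventricle, 0.0183% in muscle and 0.112% in kidney. By TMM the estimates were nearly all negative: 38 of 38 in left ventricle (median log2 change -0.13), 37 of 38 in skeletal muscle (-0.20) and 37 of 38 in kidney (-0.14), with Ndufa4l2 the exception in both. The median over all genes was 0.01, 0.02 and 0.02 in these tissues and over expressed coding genes -0.03, -0.06 and -0.07, of which 60.9, 69.7 and 73.7% had negative estimates. At an unadjusted p under 0.05 were 0, 9 and 7 of the 38 (0, 23.7 and 18.4%). Of all genes 3.37, 5.51 and 7.96% were, and of expressed coding genes 4.80, 7.04 and 14.6%. Under total count alone the medians were -0.086, -0.083 and -0.048 with 36, 28 and 27 of 38 negative, and under TMM factors from expressed coding genes -0.10, -0.12 and -0.068, with 38, 32 and 28 negative. Without 86-week replicate 14 the median in left ventricle was -0.22, and without 86-week replicate 17 it was -0.074. Signs shared by 38 genes of the same libraries are not 38 separate observations.

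In left ventricle the 3 smallest p-values were those of Ndufv1, Ndufb6 and Ndufs4. Ndufv1 had 506, 366, 354 and 336 CPM at 86 weeks, against 449, 489, 462 and 414 CPM at 16.5 weeks in left ventricle (log2 change -0.23 ± 0.12, adjusted p 1, edgeR). Ndufb6 had 102, 65.7, 76.2 and 70.0 CPM at 86 weeks, against 79.2, 115, 96.3 and 81.1 CPM at 16.5 weeks in left ventricle (-0.24 ± 0.14, adjusted p 1). Ndufs4 had 122, 92.4, 101 and 94.3 CPM at 86 weeks, against 112, 131, 120.3 and 105 CPM at 16.5 weeks in left ventricle (-0.20 ± 0.11, adjusted p 1). In each of the 3 the 86-week library of replicate 14 lay within the 16.5-week range or above it, and the ages overlapped. In skeletal muscle Ndufb6 had 46.7, 34.2, 58.2 and 51.3 CPM at 86 weeks, against 58.5, 47.5, 66.5 and 66.4 CPM at 16.5 weeks (-0.32 ± 0.11, adjusted p 0.82, edgeR). Ndufc2 had 15.7, 9.99, 21 and 16.4 CPM at 86 weeks, against 20.1, 19.9, 23.4 and 18.8 CPM at 16.5 weeks in skeletal muscle (-0.39 ± 0.15, adjusted p 0.826). The ages overlapped for both. In kidney Ndufa10 had 101, 112, 72.4 and 94.5 CPM at 86 weeks, against 124, 128, 99.7 and 96.5 CPM at 16.5 weeks (-0.21 ± 0.085, adjusted p 0.569, edgeR). Ndufb5 had 67.7, 79.6, 52.9 and 77.8 CPM at 86 weeks, against 85.2, 82.2, 87.8 and 79.0 CPM at 16.5 weeks in kidney (-0.24 ± 0.10, adjusted p 0.584). Ndufc2 had 18.1, 21.5, 13.8 and 16.6 CPM at 86 weeks, against 22.7, 21.2, 20.5 and 18.2 CPM at 16.5 weeks in kidney (-0.21 ± 0.092, adjusted p 0.593). The lowest kidney value of each was that of 86-week replicate 11, the library with the highest TMM factor.

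As a share of all counts, the 38 genes took 0.571 ± 0.041% at 86 weeks and 0.609 ± 0.013% at 16.5 weeks in left ventricle, 0.243 ± 0.011% and 0.255 ± 0.018% in skeletal muscle and 0.297 ± 0.015% and 0.309 ± 0.013% in kidney (SD, n = 4 each). The ages overlapped in each tissue. The ratio of complex I to complex V counts was 0.633 ± 0.0093 at 86 weeks and 0.629 ± 0.0075 at 16.5 weeks in left ventricle, 0.797 ± 0.022 and 0.796 ± 0.023 in skeletal muscle and 0.613 ± 0.014 and 0.602 ± 0.015 in kidney. No member of the lists of mitochondrially encoded subunits, assembly factors, other complexes, regulators, mitochondrial mass, pericytes or hypoxia targets was called for age either. The lowest adjusted p-values among them were those of Adm in kidney (-0.56 ± 0.14, adjusted p 0.211, edgeR) and of Sdhc and Ppargc1a in kidney (-0.33 ± 0.096 and -0.27 ± 0.079, adjusted p 0.33 and 0.33). Whether age changes differed between tissues was tested in the fit of all 24 libraries, and 0 of 38 genes passed, where 0.0424% of all genes did. Ndufc2, Ndufc1 and Ndufa7 had the smallest p there (0.249, 0.405 and 0.464 unadjusted, each 1 after adjustment, edgeR). The interaction of age and sex was called for 0 of 38 in each tissue, where 0.0157% of all genes were called in left ventricle, 0% in muscle and 0.0247% in kidney.

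**Figure D5:**
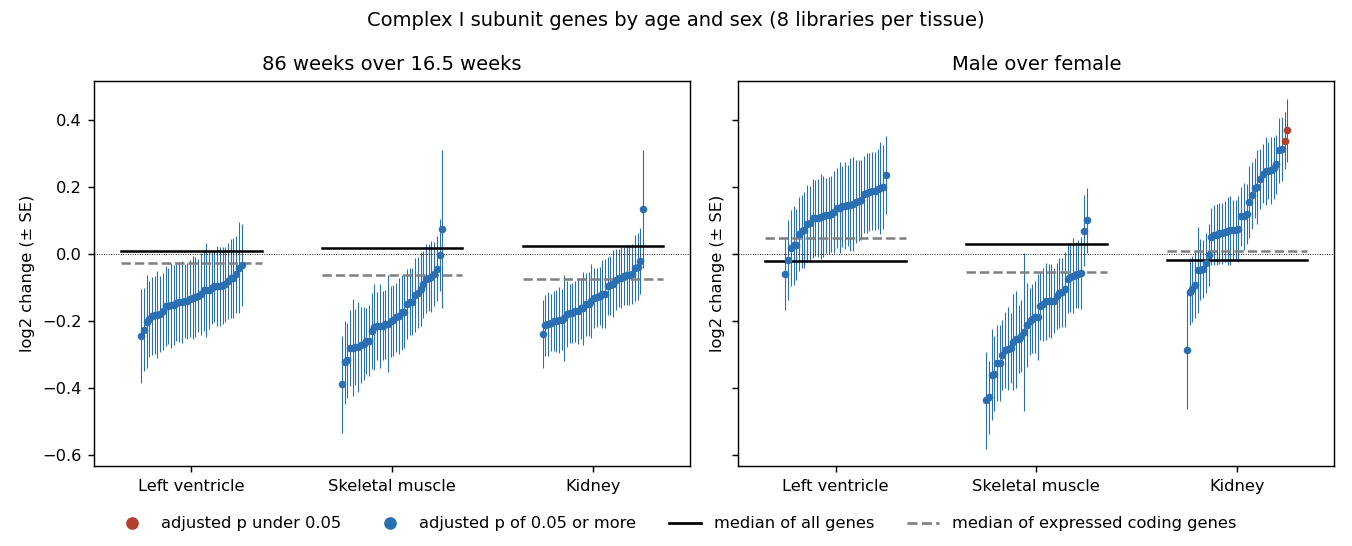
Log2 change ± SE of each of the 38 genes, sorted by size within a tissue, for 86 over 16.5 weeks (left) and male over female (right), from fits of 8 libraries per tissue. Solid lines are medians of all genes and dashed lines medians of expressed coding genes; nearly all age estimates lie below the solid lines, and 2 kidney genes passed for sex, drawn in red.

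Sex was set male against female in the same fits. In kidney 2 of 38 genes were higher in males, Ndufa10 and Ndufb4, where 7.58% of all genes were called in either direction and 3.77% as higher in males. Ndufa10 had 101, 112, 124 and 128 CPM in males, against 72.4, 94.5, 99.7 and 96.5 CPM in females in kidney (log2 change 0.34 ± 0.085, adjusted p 0.0243, edgeR). Ndufb4 had 26.1, 31.2, 30.3 and 31.6 CPM in males, against 17.4, 24.3, 24.2 and 25.4 CPM in females in kidney (0.37 ± 0.095, adjusted p 0.0277). The sexes did not overlap for either gene. Neither gene passed with RLE size factors (adjusted p 0.0619 and 0.0575, edgeR), in a fit without age (0.0714 and 0.0504) or in a fit of all 24 libraries (0.0924 and 0.108). Neither gene passed without 86-week replicate 17, or without any single 16.5-week mouse, with adjusted p-values of 0.0566 to 0.105 (edgeR). Without 86-week replicate 11, the library that stood apart, their changes were 0.30 and 0.29 and both passed. The identical copy Ndufb4c had 0.45 ± 0.12 (adjusted p 0.0312, edgeR), and its reads cannot be told apart from those of Ndufb4. The median over the 38 genes was 0.07 in kidney, 29 of 38 being positive, and -0.005 under total count alone. By TMM the median was -0.02 over all genes and 0.009 over expressed coding genes.

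In skeletal muscle none passed (1.36% of all genes were called), and 36 of 38 estimates were negative with a median of -0.19, against 0.03 over all genes. Over expressed coding genes the median was -0.05, and 63.8% of them had negative estimates. In complexes II, III, IV and V 3 of 4, 8 of 9, 12 of 14 and 14 of 15 estimates were negative in muscle. Ndufs8 had 30.3, 22.8, 36.3 and 35.6 CPM in males, against 42.4, 40.1, 49.1 and 41.6 CPM in females in skeletal muscle (-0.43 ± 0.11, adjusted p 0.0942, edgeR), with no overlap between the sexes. Ndufs6 had 53.6, 41.1, 67.7 and 56.7 CPM in males, against 73.6, 61.4, 83.5 and 71.6 CPM in females in skeletal muscle (-0.36 ± 0.11, adjusted p 0.232). Ndufa1 had 48.0, 34.3, 46.3 and 45.6 CPM in males, against 54.4, 50.8, 87.9 and 54.8 CPM in females in skeletal muscle (-0.44 ± 0.14, adjusted p 0.264). The sexes overlapped for Ndufs6 and did not for the X-linked Ndufa1. The male 86-week replicate 17, which stood apart among the muscle libraries, had the lowest value of each of the 3. At an unadjusted p under 0.05 were 12 of the 38 in muscle (31.6%), against 9.62% of all genes and 14.3% of expressed coding genes. In kidney 12 of the 38 were also under 0.05 (31.6%), against 17.1% of all genes and 37.8% of expressed coding genes. In left ventricle none passed either (0.871% of all genes), 36 of 38 estimates were positive and the median was 0.13, against -0.02 over all genes. Over expressed coding genes the median was 0.05, and 32.0% of them had negative estimates. In complexes II, III, IV and V 0 of 4, 0 of 9, 1 of 14 and 1 of 15 estimates were negative in left ventricle. The smallest p-values there were those of Ndufb2 (0.23 ± 0.12), Ndufa3 (0.19 ± 0.12) and Ndufa5 (0.19 ± 0.12), each with an adjusted p of 1 (edgeR) and none under 0.05 before adjustment.

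The sign of the sex difference differed by tissue in its estimates, and the test of that difference was passed by 0 of 38 genes, where 2.19% of all genes passed. Before adjustment 14 of 38 (36.8%) were under 0.05, against 10.3% of all genes and 23.4% of expressed coding genes. The smallest adjusted p-values were 0.0744 for Ndufb3, 0.101 for Ndufs8 and 0.108 for Ndufa1 (edgeR). Ndufb3 had 0.19 ± 0.12 in left ventricle, -0.30 ± 0.10 in muscle and 0.27 ± 0.088 in kidney, as log2 changes of male over female. Among the other lists, genes called for sex were found in kidney alone. There the assembly factors Nubpl (0.41 ± 0.092) and Ecsit (0.37 ± 0.094) were higher in males, the muscle isoforms Cox8b (-3.13 ± 0.58) and Cox7a1 (-0.52 ± 0.15) were lower, and the import receptor Tomm20 (0.34 ± 0.093) and the chaperone Hspd1 (0.53 ± 0.095) were higher. Adipocyte genes in kidney summed to 153.5 CPM in the female 16.5-week replicate 15 and 56.8 CPM in the female 86-week replicate 12. The other kidney libraries had 19.5 to 31.8 CPM. The part of fat tissue in the levels of Cox8b and Cox7a1 was not tested. The pericyte marker Rgs5 was lower in males (-0.60 ± 0.12), and of the hypoxia targets Car9 (1.45 ± 0.13) and Egln3 (0.42 ± 0.11) were higher and Slc2a1 (-0.55 ± 0.14) and Pdk1 (-0.42 ± 0.081) lower.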

How the data were processed

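For these libraries of ribosome-depleted total RNA, the submitters' processing notes name STAR 2.7.6a, StringTie 2.1.1 and the build GRCm38.p6. The authors deposited a table of raw counts per gene for 24 libraries. The annotation, the strand setting and the way counts were made are not given in the sources used here. Of the gene identifiers, 54349 matched GENCODE M21 on the same build, which gave gene types, spans and transcript lengths.

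Counts were tested with edgeR 4.0.16 (R 4.3.3) quasi-likelihood F-tests after TMM and filterByExpr, with Benjamini-Hochberg adjustment over all genes tested, a threshold of 0.05 and two-sided p-values. Tissues were compared in a fit of 24 libraries with tissue, age within tissue and sex within tissue. Age and sex were compared in fits of 8 libraries per tissue with additive terms, and their interaction in a fit with that term added. Because the same 8 mice gave all tissues, the mouse numbers pair the libraries; same-numbered libraries correlated at -0.16 to 0.27 in their deviations from the fit, with 6 of 24 pairs over 0.1. The mouse as a block was an alternative, as were RLE size factors, total count alone, DESeq2 1.42.0, limma-voom 3.58.1, other filters and covariates, the ages and sexes alone, and leaving out each mouse. TMM factors from expressed coding genes and leaving out the 2 libraries that stood apart were chosen after seeing the data. No 2 libraries held identical counts. The fits were also run on simulated data, and the outcome is not given here. In those data few genes changed, in either direction, so they do not bear on the scaling between tissues. The error of a level is an SD over libraries and that of a log2 change the SE of the fit.

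The members, lists, motifs and tests were chosen with earlier results of these data known. The 6 members with the largest and the 6 with the smallest change that passed in a tissue comparison were named, with those that passed for age or sex or else the 3 with the smallest p, the core subunits, Ndufab1, Ndufv3, Ndufs4, Ndufa4 and Ndufa4l2, and from each other list up to 3 genes past the threshold. Of these, 1 member counts in all totals and is not reported by name here. Promoters came from RefSeq (GRCm38.p6) and pseudogene alignments from Biopython 1.88.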

Additional observations from a re-analysis of the deposited data

Results flagged for a closer look

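Within the groups of 4 libraries, levels of the 38 genes and their sum were searched for a library whose gap to its nearest neighbour took up most of the group's range. Of 234 groups 17 had such a library, where chance gives about 1 in 20. In left ventricle the male 86-week replicate 14 was high for 8 of these. Its summed level was 6973 CPM, against 5226 to 5471 CPM in the other 3 old libraries. Ndufa10 had 323 CPM there (238 to 249 CPM in the others), Ndufa11 138 CPM (96.3 to 102 CPM), Ndufa13 157 CPM (119 to 123 CPM) and Ndufa2 105 CPM (72.4 to 77.4 CPM). Ndufa4 had 232 CPM (175 to 181 CPM), Ndufs3 189 CPM (134 to 143 CPM) and Ndufs8 88.1 CPM (66.5 to 68.7 CPM). The TMM factor of this library, 0.895, was the lowest of the 4, and its share of all counts in the 38 genes, 0.624%, was the highest. The part of the scaling in these levels was not tested. Without this mouse the median age change of the 38 genes in left ventricle was -0.22, against -0.13 with it.

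In skeletal muscle the female 16.5-week replicate 14 was high for Ndufa9 (173 CPM, 137 to 142 CPM in the others), Ndufb9 (153 CPM, 127 to 131 CPM) and Ndufs3 (118 CPM, 105 to 107 CPM). There the male 86-week replicate 17 was low for Ndufa9 (105 CPM, 132 to 133 CPM in the others). In left ventricle the male 16.5-week replicate 20 was high for Ndufb7 (110.2 CPM, 88.1 to 89.5 CPM).

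In kidney the female 16.5-week replicate 14 was low for Ndufa1 (53.8 CPM, 63.4 to 64.9 CPM in the others), and the female 86-week replicate 11 was low for Ndufa3 (5.33 CPM, 6.79 to 6.95 CPM). The male 16.5-week replicate 19 was low for Ndufa5 (64.9 CPM, 77.4 to 78.5 CPM), and the male 16.5-week replicate 20 was high for Ndufs6 (58.7 CPM, 52.8 to 53.0 CPM).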

How the results depend on the processing

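The counts of called genes and the medians of the 38 genes are given here under each alternative that moved them. For left ventricle over kidney, 38 genes were called higher under every alternative except 86 weeks alone (36) and males alone (37). Total count alone left 16 of them at least 2-fold higher and a median of 0.93, and TMM factors from expressed coding genes gave a median of 1.46, against 26 genes and 1.21 in the report. For left ventricle over skeletal muscle, 24 genes were at least 2-fold higher with total count alone, 4 in females alone and 7 with TMM factors from expressed coding genes, against 13. The median was 1.19 with total count alone, against 0.87.

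Skeletal muscle over kidney depended most on the scaling. With 26 genes called and 24 of them higher in the report, 17 were called and 15 higher with RLE size factors, 16 called and 14 higher at 86 weeks alone, and 15 called and 11 higher in males alone. With total count alone 5 were higher, the median was -0.30, and Ndufb11 (-0.31), Ndufa7 (-0.34), Ndufs1 (-0.39) and Ndufa4 (-0.39) reversed. Of all genes called under that setting 13.1% were higher. Ndufa4 was also reversed in males alone (-0.025). The count of genes at least 2-fold higher, 0 in the report, was 4 with a filter of 1 CPM in 4 libraries, 1 at 16.5 weeks alone, 1 in females alone, and 10 with TMM factors from expressed coding genes, which gave a median of 0.71. Leaving out each mouse gave 0 to 1. The causes were not tested.

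With the mouse as a block, which pairs the libraries of the same animal, 38 genes were called for left ventricle over kidney, 36 for left ventricle over skeletal muscle and 24 for skeletal muscle over kidney, 22 of them higher. It ended the calls of Ndufs1 and Ndufa4 in skeletal muscle over kidney and no other call named for a tissue comparison.

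The sex-by-tissue test, with 0 calls in the report, gave 6 with total count alone and 7 with a filter of 1 CPM in 4 libraries. For sex in skeletal muscle, also 0, these settings gave 2 and 1, and TMM factors from expressed coding genes 1. For sex in kidney, with 2 calls in the report, RLE size factors, the fit without age and the fit of all 24 libraries each gave 0, limma-voom 4, the filter of 1 CPM in 4 libraries 12, and TMM factors from expressed coding genes 10. Leaving out each mouse gave 0 to 4, with 4 without the 86-week replicate 12 and 0 without the 86-week replicate 17 or any 16.5-week mouse. In the report 7.58% of all genes were called for sex in kidney, 1.36% for sex in muscle and 2.19% in the sex-by-tissue test. The share of all genes called under the other settings is not given here. The counts under those settings therefore do not show whether subunit genes were called more often than other genes. The age tests called 0 genes in each tissue under every alternative.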
